A study of Mus musculus with 4 samples.

Results

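The genes described here encode complement components, regulators and receptors: C2, Cfb, C1ra, Masp1, Cd55, Cd59a, C3ar1 and C5ar1. They were taken by gene symbol from a list of 9 names, and the 9th, C3, is not analysed here because no probe set carried its symbol in the annotation used. The 8 genes stand among 18193 genes measured and are covered by 20 probe sets of their own, with 2 further probe sets that the annotation shares with a related gene (Cd55b for Cd55, C1rb for C1ra). A gene is shown through its brightest probe set, by the mean of all 4 arrays, with the others beside it.

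Cells from tumour-draining lymph nodes fell into a metastatic and a non-metastatic group, with 2 biological replicates and 1 Affymetrix array per replicate. In the metastatic group the mice carried 293-VEGF-D tumours, grown under the skin from human 293 cells that overexpress VEGF-D, and a node was used only if it was visibly enlarged. In the non-metastatic group the tumours came from 293-Apex cells. All mice were female SCID/NOD animals aged 6 to 8 weeks, a strain that lacks functional B and T cells, and the left axillary node was taken at tumour volumes of 1600 to 2500 mm3, after 3 to 4 weeks. Each preparation pooled nodes of 1 to 5 mice, and its digested cells were cultured briefly in endothelial growth medium before magnetic selection for podoplanin, which both lymphatic endothelium and fibroblastic reticular cells carry. By the sorting label, depletion of tumour cells and leukocytes preceded the culture in the metastatic group alone, whereas the growth protocol does not separate the groups in this step. Metastasis, tumour VEGF-D, node enlargement and this depletion all go with the group and cannot be told apart.

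Complement is a cascade of serum and cell-surface proteins in which proteases cleave one another and end by opsonising or lysing a target. C1r and C1s start the classical pathway, MASP enzymes the lectin pathway, and C2 and factor B supply the catalytic subunit of the enzymes that cleave C3. Host cells hold the cascade off with surface regulators such as CD55 and CD59, and the released fragments C3a and C5a act on receptors carried mainly by myeloid cells. The liver makes most of the serum proteins, and fibroblasts, endothelial cells and macrophages make many of them locally.

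The label calls the cells an enriched endothelial fraction, and its markers were mixed in signal. Of 9 endothelial markers 4 had a mean log2 signal under the median of all probe sets (5.95), among them Pecam1 at 4.94 and the junction gene Cdh5 at 5.87, and 5 were above it. Of 6 lymphatic markers 3 were under it, among them the transcription factor gene Prox1 at 4.00, and Pdpn, Lyve1 and Flt4 were above it. Lyve1 averaged 8.03 on the non-metastatic arrays but 5.27 on the metastatic arrays, which is under that median. Of 9 fibroblast markers 1 was under it, and of 12 myeloid markers 6 were, among them the pan-leukocyte gene Ptprc at 4.13. Probe sets differ in how well they bind, so these levels do not rank genes or cell types, and a dim probe set does not show that a gene is absent. In material of this kind, fewer cells of a type and less RNA per cell cannot be told apart.

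The promoters of 3 genes are shown because the genes, Cd55, Cd59a and C3ar1, had lower signal on both metastatic arrays than on both non-metastatic arrays. RefSeq promoters were found for 6 of the 9 listed genes. Each line holds the 250 bases before the annotated start, 5′ to 3′, and the capitals mark the motifs named after the lines.
Cd55, GRCm38.p6 chr1:130462745-130462994, minus strand: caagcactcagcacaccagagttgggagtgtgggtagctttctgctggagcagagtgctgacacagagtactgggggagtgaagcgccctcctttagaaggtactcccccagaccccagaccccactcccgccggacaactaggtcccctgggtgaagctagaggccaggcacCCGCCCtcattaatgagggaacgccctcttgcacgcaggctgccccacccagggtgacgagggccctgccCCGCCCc
Cd59a, GRCm38.p6 chr2:104095551-104095800, plus strand: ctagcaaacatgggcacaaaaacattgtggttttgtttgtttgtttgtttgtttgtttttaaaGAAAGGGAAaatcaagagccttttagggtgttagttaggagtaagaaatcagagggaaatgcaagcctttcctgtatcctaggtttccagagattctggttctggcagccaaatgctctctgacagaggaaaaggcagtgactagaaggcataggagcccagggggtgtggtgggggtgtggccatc
C3ar1, GRCm38.p6 chr6:122856158-122856407, minus strand: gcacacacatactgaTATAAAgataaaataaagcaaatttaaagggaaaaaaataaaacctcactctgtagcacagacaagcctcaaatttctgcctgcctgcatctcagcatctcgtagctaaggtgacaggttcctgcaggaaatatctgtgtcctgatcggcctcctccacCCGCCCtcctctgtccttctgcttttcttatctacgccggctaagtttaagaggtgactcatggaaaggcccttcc

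The search covered 7 motifs on both strands, and no match overlapped another in these windows. The Cd55 window held the GC box GGGCGG at 2 places, both on the opposite strand, starting at bases -77 and -7 from the annotated start. The C3ar1 window held 1 GC box on the opposite strand, at base -76, and the TATA box TATAAA at base -235. A GC box was found in 32.7% and a TATA box in 12.4% of 32851 RefSeq promoter windows of this length. The Cd59a window held GAAANNGAA, the core of the interferon-stimulated response element, which 7.13% of windows hold. None of the 3 windows had a letter match to the gamma-activated site TTCNNNGAA, the cAMP response element TGACGTCA, the PU.1 site GAGGAAGT or the NF-kappaB motif, which 7.02%, 1.55%, 2.44% and 3.90% of windows hold. The window of C5ar1, a gene whose groups overlapped, is not shown. It also held the interferon-stimulated core, on the opposite strand at base -66. The windows of C1ra and C3, also not shown, held none of the 7 motifs.

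The comparison asks how these genes differ between the stromal and endothelial cells of nodes that drained metastatic and non-metastatic tumours. All 8 genes had a lower mean signal in the metastatic group, with a median log2 difference of -0.44, while 9118 of the 18193 genes were lower and the median over them was -0.00053. This list and those below were chosen with earlier results of these data known, so counts set beside all genes are descriptive only. For Cd55, Cd59a, C3ar1 and Masp1 both metastatic arrays lay below both non-metastatic arrays, which is 4 of 8 genes, all lower, beside 17.3% of all genes lower, 17.3% higher and 34.6% either way. For the other 4, C2, Cfb, C1ra and C5ar1, the groups overlapped. No gene passed limma's moderated test with Benjamini-Hochberg adjustment under 0.05: 0 of the 8, beside 0% of 45037 probe sets, and 2731 probe sets had an unadjusted p under 0.05. At that unadjusted level the 4 genes whose groups were apart are counted, all lower, beside 4.08% of all genes lower and 2.63% higher. With 2 arrays in each group, the smallest two-sided p of an exact permutation test is 0.33. Leaving out 1 array left 6 or 7 of the 8 genes lower.

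**Figure D1:**
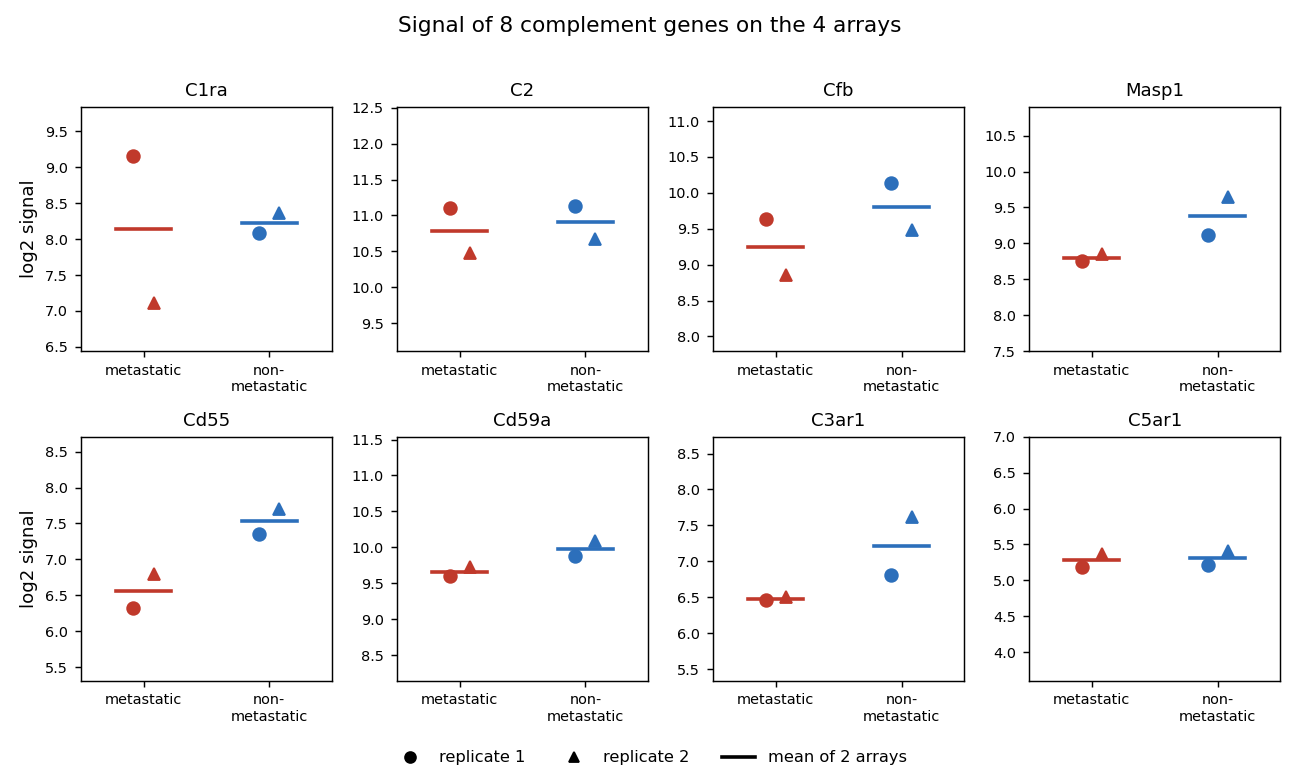
Log2 signal (y axis, each panel spanning the same height in log2 units) of the representing probe set of 8 complement genes on the 2 metastatic arrays (red, left) and the 2 non-metastatic arrays (blue, right), with replicate 1 as a circle, replicate 2 as a triangle and the mean as a bar. The groups are apart for Cd55, Cd59a, C3ar1 and Masp1, and the metastatic replicates of C1ra lie 2.05 log2 units apart.

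Among the regulators on the list, Cd55 had the largest difference of the 8 genes. It encodes decay-accelerating factor, a lipid-anchored surface protein that takes apart the enzymes that cleave C3 and C5. Its log2 signal was 6.32 and 6.79 on the metastatic arrays, against 7.35 and 7.70 on the non-metastatic arrays. The metastatic arrays averaged 6.55 ± 0.33 and the non-metastatic arrays 7.53 ± 0.24 (SD, n = 2 each), a log2 difference of -0.97 (SE 0.20, 95% interval -1.48 to -0.47), or 1.96-fold lower signal. The gap between the groups was larger than the gap between replicates in either of them, and the limma adjusted p was 0.424. The other 2 probe sets of Cd55 behaved alike, with 5.70 and 5.87 on the metastatic arrays, against 6.61 and 6.72 on the non-metastatic arrays, for the one, and 5.92 and 6.04 on the metastatic arrays, against 6.44 and 7.02 on the non-metastatic arrays, for the other. Their log2 differences were -0.88 (SE 0.12) and -0.75 (SE 0.21). All 3 probe sets thus separated the groups. With any 1 array left out, the difference of the brightest lay between -1.21 and -0.74. The probe set shared with Cd55b was dim, with a mean signal of 3.53 at percentile 0.881 of all probe sets, and had a difference of -0.17 (SE 0.13).

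Cd59a encodes the surface protein that keeps C9 from completing the membrane attack pore. Its log2 signal was 9.60 and 9.72 on the metastatic arrays, against 9.88 and 10.09 on the non-metastatic arrays. The difference was -0.32 (SE 0.13, 95% interval -0.64 to -0.01), or 1.25-fold lower signal, with a limma adjusted p of 0.811. Its other probe set had 9.38 and 9.52 on the metastatic arrays and 9.73 and 9.91 on the non-metastatic arrays. Both probe sets of Cd59a separated the groups by less than the smallest Cd55 difference. Cd59a stayed lower with each array left out, between -0.43 and -0.22.

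The proteases differed in pattern. C1ra, which encodes C1r, the protease that activates C1s in the first complex of the classical pathway, had the widest spread of the 8 genes. Its log2 signal was 9.16 and 7.12 on the metastatic arrays, against 8.09 and 8.36 on the non-metastatic arrays. The highest and the lowest value of C1ra were thus both from the metastatic group, with the non-metastatic values between them. A gap between metastatic replicates of at least 2.05 log2 units was seen for 0.192% of all genes. The metastatic arrays averaged 8.14 ± 1.45 and the non-metastatic arrays 8.22 ± 0.19 (SD, n = 2 each), and the difference of -0.08 (SE 0.62) had a 95% interval of -1.62 to 1.45, so differences of more than 2-fold either way lie inside it. It stood at -1.11 without metastatic replicate 1 and at 0.94 without metastatic replicate 2. The probe set shared by C1ra and C1rb had the same order within the metastatic group, with 6.92 and 5.17, against 6.15 and 6.12 in the non-metastatic group.

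C1s1, named here after its values were seen, encodes C1s, the protease that C1r activates. Its log2 signal was 8.87 and 5.76 on the metastatic arrays, against 7.20 and 8.18 on the non-metastatic arrays. Metastatic replicate 1 was highest and metastatic replicate 2 lowest for both protease genes. The metastatic replicates of C1s1 differed by 3.11 log2 units, a gap reached by 0.0385% of all genes, and the group difference was -0.37 (SE 0.97). It was -1.93 without metastatic replicate 1 and 1.19 without metastatic replicate 2. The array's naming marks the only probe set of C1s1 as able to bind several transcripts. Serping1, which encodes the C1 inhibitor that blocks both proteases, did not share that order and had its lowest values in the metastatic group. It had 10.78 and 10.42 on the metastatic arrays, against 11.81 and 11.17 on the non-metastatic arrays.

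**Figure D2:**
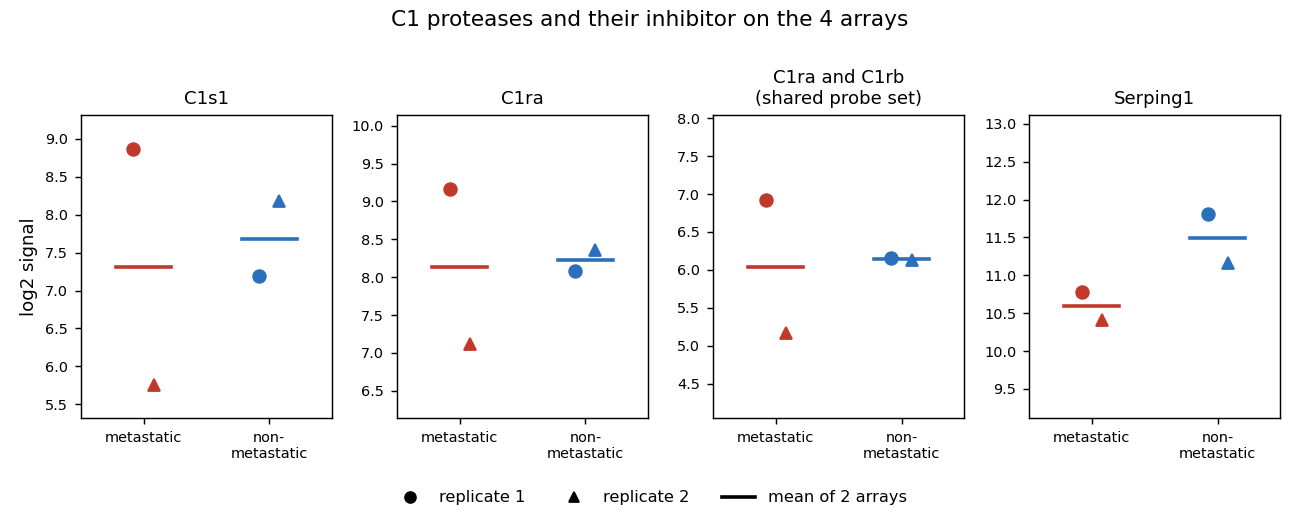
Log2 signal (y axis, each panel spanning the same height) of C1s1, C1ra, the probe set shared by C1ra and C1rb, and the C1 inhibitor gene Serping1 on the metastatic arrays (red, left) and the non-metastatic arrays (blue, right), with replicate 1 as a circle, replicate 2 as a triangle and the mean as a bar. In the metastatic group replicate 1 lies far above replicate 2 for the protease probe sets, by 3.11 log2 units for C1s1 and 2.05 for C1ra, and by 0.37 for Serping1.

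C2 and Cfb are neighbouring genes in the major histocompatibility complex, and their products play the matching part in the classical and the alternative pathway. For C2 the log2 signal was 11.10 and 10.48 on the metastatic arrays, against 11.14 and 10.67 on the non-metastatic arrays. For Cfb, which encodes factor B, it was 9.63 and 8.86 on the metastatic arrays, against 10.13 and 9.48 on the non-metastatic arrays. In both groups replicate 1 was above replicate 2 for both genes. The gap was 0.62 log2 units for C2 and 0.77 for Cfb in the metastatic group, and 0.47 for C2 and 0.65 for Cfb in the non-metastatic group. Replicate 1 was above replicate 2 in both groups for 25.3% of all genes, and by at least the gaps of Cfb in both for 0.313%. The labels do not say that replicates of the same number were handled together.

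The difference of C2 was smaller than its gap between replicates, at -0.11 (SE 0.25, 95% interval -0.74 to 0.51), and its sign turned to 0.20 without metastatic replicate 2 and to 0.12 without non-metastatic replicate 1. The array's naming marks this probe set as able to bind several transcripts. The unmarked probe set of C2 had a difference of -0.16 and the third one -0.20, each smaller than its SE. Cfb had a difference of -0.56 (SE 0.32, 95% interval -1.35 to 0.23) with a limma adjusted p of 0.917. Leaving out 1 array moved it between -0.95, without metastatic replicate 1, and -0.17, without metastatic replicate 2. Without non-metastatic replicates 1 and 2 in turn it was -0.23 and -0.89. The probe set that the annotation shares between C4a and C4b had 9.28 and 8.72 on the metastatic arrays, against 8.89 and 8.12 on the non-metastatic arrays. There too replicate 1 was the higher in both groups. Unlike C2 and Cfb, this probe set had a higher mean in the metastatic group, by 0.50 (SE 0.30, 95% interval -0.25 to 1.25), and the groups overlapped. Being shared, it enters none of the gene counts given here.

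Masp1 encodes a serine protease of the lectin pathway and, by alternative splicing, the related protease MASP-3. Its brightest probe set had 8.75 and 8.85 on the metastatic arrays, against 9.11 and 9.65 on the non-metastatic arrays. The difference was -0.58 (SE 0.19, 95% interval -1.06 to -0.10), or 1.49-fold lower signal, with a limma adjusted p of 0.718. It was -0.31 without non-metastatic replicate 2. Of the 5 probe sets of Masp1, the 3 brightest had differences of -0.58, -0.54 and -0.59 and separated the groups. The array's naming marks these 3 as able to bind several transcripts. The 2 without that mark were dim, with mean signals of 5.38 and 4.62. The first of them overlapped between the groups, at 0.11 (SE 0.17), and the other was lower on both metastatic arrays, at -0.24 (SE 0.15), so the probe sets of Masp1 disagree. Which transcripts each probe set detects was not tested.

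**Figure D3:**
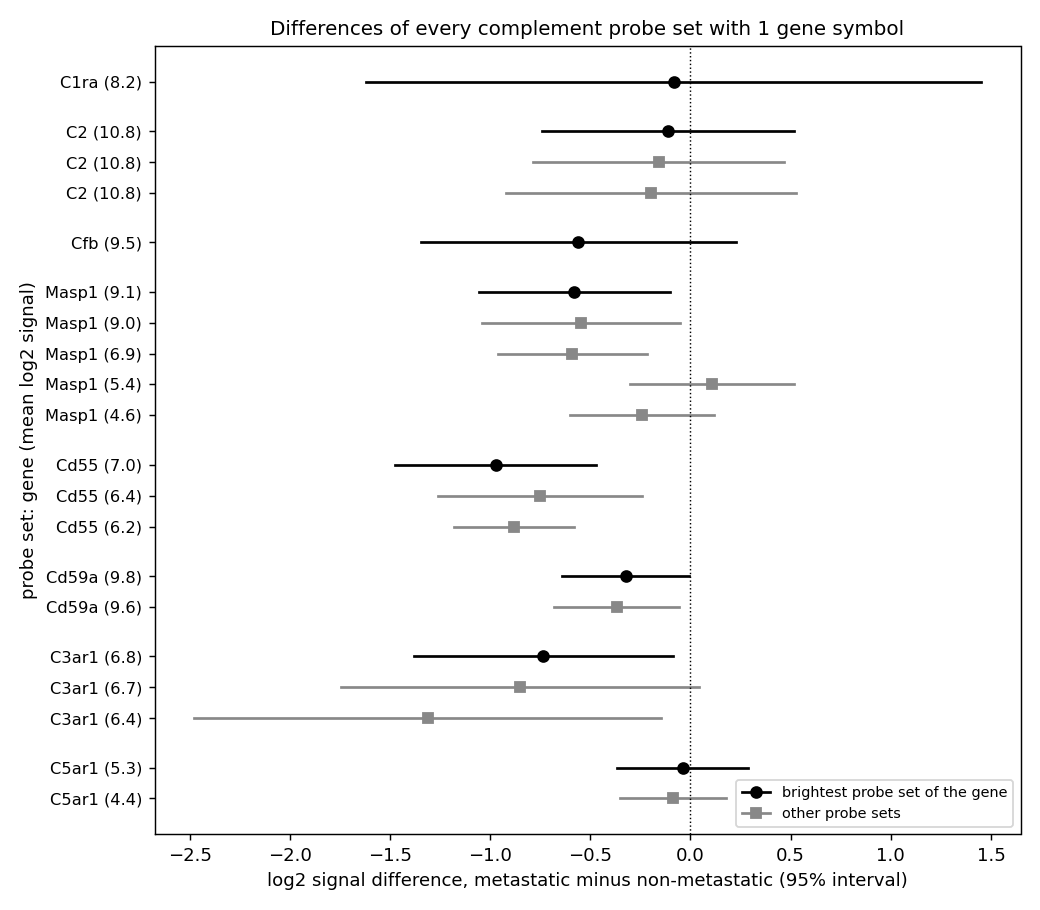
Log2 signal difference, metastatic minus non-metastatic, with limma's 95% interval (x axis) for the 20 probe sets assigned to 1 of the 8 genes (y axis, with the mean log2 signal of each in brackets). Black circles are the brightest probe set of a gene and grey squares the others. The 3 probe sets of Cd55 all lie left of 0, between -0.97 and -0.75, while the 5 probe sets of Masp1 lie on both sides.

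The anaphylatoxin receptors differed from each other in pattern. C3ar1, the receptor for C3a, had 6.45 and 6.51 on the metastatic arrays, against 6.81 and 7.62 on the non-metastatic arrays. The groups did not overlap, and the value of non-metastatic replicate 2 stood above the other 3. The difference was -0.74 (SE 0.26, 95% interval -1.38 to -0.09) with a limma adjusted p of 0.761, and it was -0.33 without that array and -1.14 without the other non-metastatic one. The other 2 probe sets of C3ar1 had the same order of arrays. They read 6.27 and 6.37 on the metastatic arrays, against 6.59 and 7.75 on the non-metastatic arrays, for the one, and 5.64 and 5.79 on the metastatic arrays, against 6.26 and 7.80 on the non-metastatic arrays, for the other. Their differences were -0.85 (SE 0.36) and -1.31 (SE 0.47). C5ar1, the receptor for C5a, was dim, with 5.19 and 5.37 on the metastatic arrays and 5.22 and 5.42 on the non-metastatic arrays. The other probe set of C5ar1 was dimmer, with 4.36 and 4.41 on the metastatic arrays, against 4.48 and 4.46 on the non-metastatic arrays, and there the groups did not overlap, at a difference of -0.09 (SE 0.11). The brighter one's difference of -0.04 (SE 0.13) had a 95% interval of -0.37 to 0.29, and its sign turned without metastatic replicate 1 or non-metastatic replicate 2.

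Myeloid genes bear on these receptors, since macrophages and other myeloid cells carry both. Of 12 myeloid markers 10 were lower in the metastatic group, with a median log2 difference of -0.18, and their summed linear signal was 1354 to 1579 on the metastatic arrays and 1918 to 2097 on the non-metastatic arrays. Of the list, 6 markers lay under the median signal, among them Ptprc and the macrophage gene Adgre1 with mean log2 signals of 4.13 and 4.88. The growth factor receptor gene Csf1r had 9.61 and 9.26 on the metastatic arrays, against 9.88 and 10.07 on the non-metastatic arrays, and was highest on non-metastatic replicate 2, as C3ar1 was. Cd68 was highest on the other non-metastatic array, at 7.04, as was Lyz2, named here after its values were seen, at 8.29. The gap between the groups in the summed myeloid signal is mostly that of Csf1r and Lyz2. By the sorting label the metastatic preparations alone had been depleted of leukocytes, so depletion and group cannot be told apart here. The part of myeloid cells in the C3ar1 values was not tested.

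Beyond the 8 genes, 36 of 46 other complement genes had a probe set of their own, and 24 of them were lower and 12 higher in the metastatic group, with a median log2 difference of -0.09. None passed limma at an adjusted p under 0.05, beside 0% of all genes. At an unadjusted p under 0.05 there were 4 lower and 1 higher, beside 4.08% of all genes lower and 2.63% higher. The groups did not overlap for 10 lower and 5 higher genes, beside 17.3% of all genes in each direction. Of the 36 genes, 23 had a mean signal under the median of all probe sets, among them every component of the membrane attack complex measured except C6.

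The genes were also grouped by role, a grouping made after the values were seen. With Cd55 and Cd59a the regulators numbered 12, of which 11 were lower and 1, the dim Cd55b, was higher, with a median log2 difference of -0.27. The groups were apart for 8 of the 12, all lower in the metastatic group, beside 17.3% of all genes lower. Leaving out 1 array left 9 to 12 of them lower. The 17 recognition and activation genes had 11 lower and 6 higher, with 3 lower and 2 higher apart. The 9 receptors and binding proteins had 5 lower and 4 higher, with 2 lower and 3 higher apart. The 6 membrane attack genes had 5 lower and 1 higher, with 1 lower and 0 higher apart. These counts stand beside 17.3% of all genes apart and lower and 17.3% apart and higher. Differences between these roles were not tested.

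C4bp, which encodes a chain of the serum inhibitor C4b-binding protein, had the largest difference of all 44 complement genes. Its log2 signal was 6.69 and 7.74 on the metastatic arrays, against 8.67 and 9.97 on the non-metastatic arrays. The difference was -2.10 (SE 0.51), or 4.30-fold lower signal, and the limma adjusted p was 0.520. Serping1, with the values above, had -0.89 (SE 0.24), and -0.57 without non-metastatic replicate 1. Clu encodes clusterin, a secreted chaperone that binds the terminal complex. It had 7.12 and 7.26 on the metastatic arrays, against 8.08 and 7.62 on the non-metastatic arrays, a difference of -0.66 (SE 0.18) that was -0.43 without non-metastatic replicate 1. All 4 probe sets of Clu were lower on average, at -0.66, -1.13, -0.90 and -0.35, although the groups overlapped for the last one, and the array's naming marks the first 3 as able to bind several transcripts. Cfi encodes factor I, the protease that cleaves C3b and C4b with the help of cofactors. It had 5.62 and 6.07 on the metastatic arrays, against 7.09 and 6.09 on the non-metastatic arrays, and its difference of -0.75 (SE 0.34) was -0.25 without the first of the non-metastatic arrays and -1.25 without the other. Cr1l, which encodes the rodent surface regulator Crry, was among the 5 brightest and had a small difference, -0.12 (SE 0.11, 95% interval -0.39 to 0.15). A dim probe set of Cr1l, with a mean signal of 4.26, was higher on both metastatic arrays than on both non-metastatic arrays, at 0.22 (SE 0.11). Another dim probe set of Cr1l, at 4.27, overlapped between the groups, with a difference of -0.05 (SE 0.13).

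Marker levels by cell type stand here beside these regulators. The summed linear signal of 6 smooth muscle and pericyte markers was 17456 and 28276 on the metastatic arrays, against 35187 and 33086 on the non-metastatic arrays. That sum, and the gap between the groups in it, is mostly Acta2 and Tagln. Of these 6 markers 5 were lower, with a median log2 difference of -0.46. The summed signal of 9 endothelial markers was 778 and 767 on the metastatic arrays, against 1222 and 972 on the non-metastatic arrays, while 5 of the 9 were higher and 4 lower, with a median log2 difference of 0.02. The sialomucin gene Emcn, named here after its values were seen, had 6.50 and 5.66 on the metastatic arrays, against 8.77 and 8.45 on the non-metastatic arrays. The gap between the groups in the endothelial sum is mostly that of Emcn. The 9 fibroblast markers, 5 lower and 4 higher (median log2 difference -0.02), summed to 60560 and 62335 on the metastatic arrays, against 61111 and 66252 on the non-metastatic arrays. That sum is mostly the collagen genes Col1a1, Col1a2 and Col3a1. Among the lower markers was the chemokine gene Cxcl13, named here after its values were seen. Its signal was 9.84 and 7.58 on the metastatic arrays, against 10.48 and 10.83 on the non-metastatic arrays, a difference of -1.95 (SE 0.68). Of the 6 lymphatic markers 4 were lower and 2 higher (median log2 difference -0.11), although their sum was 2146 and 2003 on the metastatic arrays, against 1799 and 1675 on the non-metastatic arrays. That sum is mostly Pdpn, which encodes the selection antigen podoplanin and had 10.89 and 10.83 on the metastatic arrays, against 10.35 and 10.35 on the non-metastatic arrays. The hyaluronan receptor gene Lyve1 was lower, with 6.32 and 4.23 on the metastatic arrays, against 8.26 and 7.80 on the non-metastatic arrays. The 5 lymphocyte markers summed to 249 and 278 on the metastatic arrays, against 272 and 295 on the non-metastatic arrays. The part of these cell types in the lower regulator values was not tested.

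Other complement genes had smaller or less stable differences. Colec12, a scavenger receptor of the collectin family, was the 1 gene higher at an unadjusted p under 0.05. It had 10.20 and 9.97 on the metastatic arrays, against 9.75 and 9.74 on the non-metastatic arrays, a difference of 0.34 (SE 0.13) that was 0.23 without metastatic replicate 1. C1qc, a chain of the recognition molecule C1q, was dim and had -0.66 (SE 0.30), with -0.19 when non-metastatic replicate 1 was left out and -1.12 when the other one was. The chains C1qa and C1qb, named here after their values were seen, were dim too, and their groups overlapped. C1qa had -1.08 (SE 0.57), with -0.18 without non-metastatic replicate 1, and C1qb had -0.14 (SE 0.15). C9, the pore-forming protein, was also dim and had -0.32 (SE 0.12). The integrin gene Itgam, the alpha chain of complement receptor 3, was dimmer still and had 0.28 (SE 0.14), with 0.17 without metastatic replicate 1. C1qbp, a mitochondrial protein that also binds C1q, had the brightest signal on the list and a difference of 0.09 (SE 0.11).

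**Figure D4:**
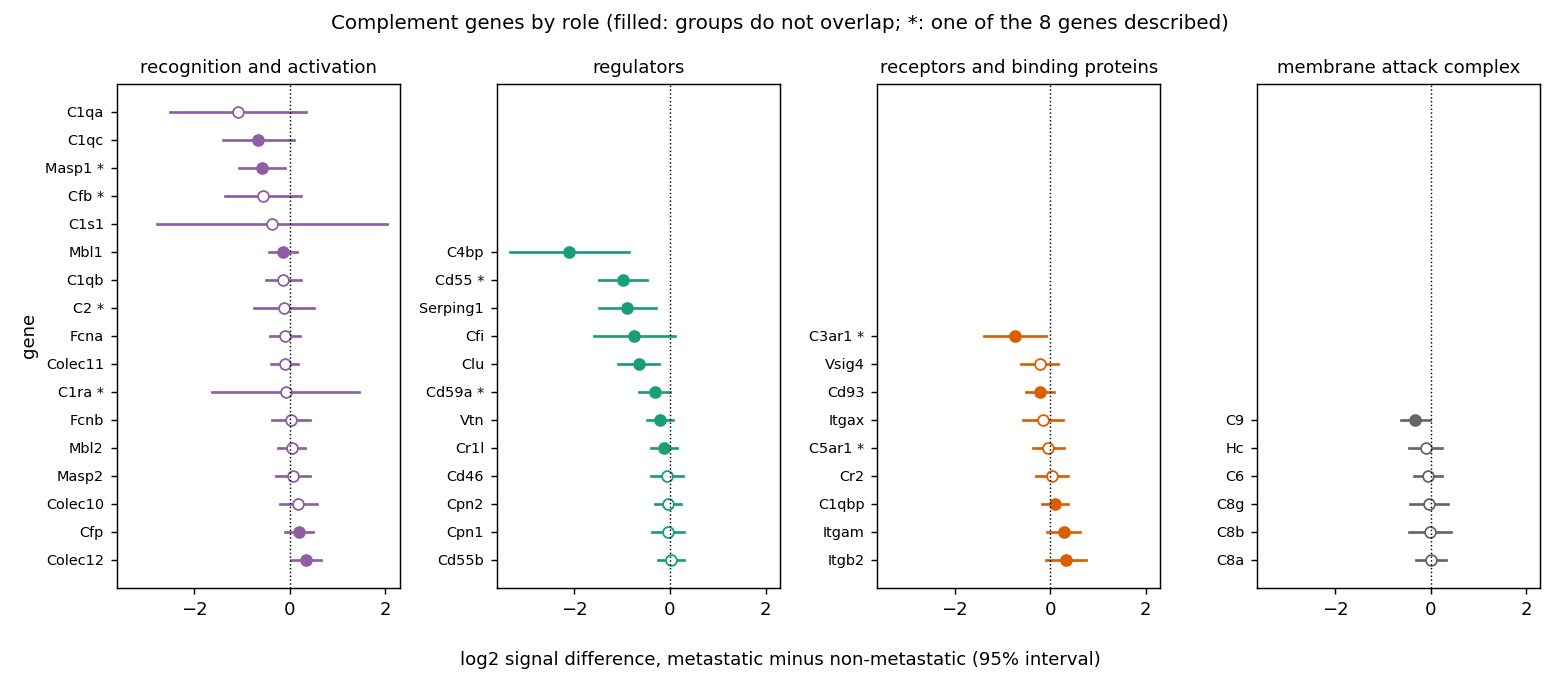
Log2 signal difference, metastatic minus non-metastatic, with limma's 95% interval (x axis) for 44 complement genes (y axis, 1 probe set each) in 4 panels by role. Filled points mark genes whose groups do not overlap and an asterisk marks the 8 genes described first. Of the 12 regulators 8 are filled, beside 17.3% of all genes apart and lower. All 8 lie left of 0, from C4bp at -2.10 to Cr1l at -0.12. The intervals of C1ra and C1s1 are the widest of their panel.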

How the data were processed

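The authors deposited 1 log2 signal per probe set and array. That scale was read from the values (3.10 to 14.87, no centring), while the summarising software, like any normalization, is not given in the sources used here. Per the labels' protocols, 3 ug of RNA was labelled and 20 ug of cRNA fragmented. Array medians differed by 0.116, over the limit of 0.1, so the arrays were quantile normalized, and 64 control probe sets were left out without a filter on dim ones. Of 45037 probe sets 34945 had 1 symbol, 932 several and 9160 none in the platform annotation, and symbols were updated by Entrez number for 34741. limma 3.58.1 in R 4.3.3 was fitted to all probe sets (2 residual and 3.72 prior degrees of freedom) with Benjamini-Hochberg adjustment. It was checked on simulated data, and Python 3.11.15 with matplotlib 3.10.9 drew the figures.

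Members and lists were chosen with earlier results of these data known. Named genes were the members, of the other complement genes the 8 with the smallest p and the 5 brightest, and defining cell markers. Genes like C3 in pattern were to be named too and were not, as C3 is not analysed here. No detection calls were used, and the number of arrays limits the precision. The text says where a choice was made later.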

Additional observations from a re-analysis of the deposited data

How the results depend on the processing

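Differences of the 8 genes were recomputed under the deposited values, centred array medians, the brighter probe sets only (which leave out C5ar1), an intensity trend with robust moderation, the average over the probe sets of each gene, the replicate number as a block, and each array left out in turn. Of 79 such values 72 kept their direction and stayed short of the threshold. Without 1 array, C1ra ranged from -1.11 to 0.94, C2 from -0.42 to 0.20 and C5ar1 from -0.14 to 0.061. C1ra turned to 0.94 without metastatic replicate 2 and to 0.053 without non-metastatic replicate 2, C2 to 0.20 without metastatic replicate 2 and to 0.12 without non-metastatic replicate 1, and C5ar1 to 0.049 without metastatic replicate 1 and to 0.061 without non-metastatic replicate 2. The labels do not state a pairing, and the gaps between replicates 1 and 2 of both groups correlated at 0.25 over probe sets. With that replicate block, limma called 150 probe sets (0.333%), 1 of the 8 genes, Cd55 (adjusted p = 0.0426, over all settings 0.0426 to 1), and 1 other complement gene, C4bp. The trend and robust setting called 5 probe sets, none of these genes. Without 1 array, 0 to 86 probe sets, 0 of the 8 genes and 0 of the 36 others were called, the 86 without metastatic replicate 1, and the groups were apart for 5 to 7 of the 8 genes, 7 without metastatic replicate 1, beside 58.9% to 77.5% of all genes, so these counts say little about the 8. Such a fit assumes that a lone array varies like the other group. The cause of these shifts was not tested. Dim probe sets limit what C5ar1 and the terminal components can show.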
